A study of Homo sapiens with 6 samples.

Results

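The human genome carries a large family of genes for C2H2 zinc finger proteins, and the largest collection of them lies on chromosome 19. The genes described here are the 249 protein-coding genes on chromosome 19 whose symbol is ZNF followed by a number, with or without a final letter, out of 46427 genes in the deposited GRCh38 gene table. They have 1674 transcripts in the deposited transcript table. Another 263 protein-coding genes with symbols of the same form lie on other chromosomes.

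The samples are 6 RNA-seq libraries of MDA-MB-231, an established human breast cancer cell line of mesenchymal appearance whose genotype is labelled wild type. Of the 6 cell preparations, 3 received control-siRNA and 3 received TAZ-siRNA, which targets WWTR1. This gene encodes TAZ, a coactivator of the Hippo pathway. Both groups were therefore parental cells that received a transfection, and their labels differ only in the siRNA, a siGENOME reagent in the case of WWTR1. The paper's methods count each library as a cell preparation of its own, and all came from 1 cell line. The siRNA dose and treatment time of the sequenced cells are not given in the sources used here.

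In a C2H2 zinc finger, a pair of cysteines and a pair of histidines hold a zinc ion, and a row of such fingers reads a stretch of DNA. Most of the chromosome 19 proteins also carry a KRAB box, which recruits TRIM28 (KAP1). TRIM28 in turn brings in the histone H3 lysine 9 methyltransferase SETDB1, HP1 proteins and histone deacetylases, and many targets of these repressors are transposable elements. The genes arose by repeated tandem duplication and still stand in clusters of related copies.

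The family features were checked in sequence. In proteins translated from GENCODE transcripts, which were available for 246 of the 249 genes, the number of matches to the C2H2 finger pattern ran from 1 in ZNF428 to 39 in ZNF729, with a median of 13. ZNF788P, which is labelled protein-coding in the deposited table, was among the genes without such a protein. A KRAB pattern was matched by 207 of the 246 proteins, against 111 of 260 zinc finger proteins of other chromosomes and 53 of 18500 other proteins. The genes formed 16 clusters when a gap of more than 1 Mb was taken to separate neighbours, and the clusters held 1 to 59 genes each. The length of a gene was taken as that of its transcript with the highest mean FPKM (reads per kilobase of transcript and library size), and ranged from 597 to 15710 bases with a median of 3895.

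A set of promoters is shown here because the 3 genes concerned, ZNF430, ZNF714 and ZNF254, were all in the fifth cluster and all rose with TAZ-siRNA. They were the 3 of 23 tested genes of that cluster that rose at an adjusted p under 0.05, against 11.9% of all genes tested. The 250 bases before each RefSeq start (GRCh38.p14, plus strand) are given 5′ to 3′. The RefSeq starts of ZNF714 and ZNF254 lie inside the genes as the deposited table spans them. The window of ZNF714 therefore lies in part within its gene, and that of ZNF254 lies wholly within it. Capitals mark the longest run of letters that all 3 share.
ZNF430 (chr19:21020407-21020656): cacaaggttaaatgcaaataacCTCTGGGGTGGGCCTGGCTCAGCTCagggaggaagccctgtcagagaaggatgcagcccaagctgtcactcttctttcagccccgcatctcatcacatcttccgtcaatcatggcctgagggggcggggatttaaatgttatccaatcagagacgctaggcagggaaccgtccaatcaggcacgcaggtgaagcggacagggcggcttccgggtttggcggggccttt
ZNF714 (chr19:21081953-21082202): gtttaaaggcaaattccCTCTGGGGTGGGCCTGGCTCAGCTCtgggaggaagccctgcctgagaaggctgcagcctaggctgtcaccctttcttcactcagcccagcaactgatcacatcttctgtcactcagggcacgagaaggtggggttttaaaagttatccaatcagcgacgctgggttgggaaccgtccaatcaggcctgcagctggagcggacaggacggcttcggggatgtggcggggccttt
ZNF254 (chr19:24086937-24087186): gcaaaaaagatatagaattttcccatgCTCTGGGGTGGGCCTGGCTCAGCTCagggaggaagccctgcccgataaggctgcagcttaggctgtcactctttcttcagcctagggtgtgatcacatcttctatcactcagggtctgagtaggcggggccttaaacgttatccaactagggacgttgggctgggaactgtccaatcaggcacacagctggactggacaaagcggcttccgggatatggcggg
The shared run, CTCTGGGGTGGGCCTGGCTCAGCTC, is 25 bases long and began 228, 233 and 223 bases before the start of ZNF430, ZNF714 and ZNF254. On either strand it was found in 6 of 35116 RefSeq promoter windows (0.0171%), each a window of 250 bases before to 50 after a start, and all 6 belonged to genes of the fifth cluster. The other 3 holders, ZNF737, ZNF626 and ZNF208, had at most 13 counts in any library and were not tested. The run was looked for because these genes rose, so its presence in them describes related promoters and is no test.

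The siRNA reached its target. WWTR1 had 192, 190 and 190 CPM (counts per library size after scaling with the TMM factors of edgeR) with control-siRNA and 17.3, 17 and 15.1 CPM with TAZ-siRNA. Its log2 fold change was -3.53 ± 0.06 (SE, n = 3 against 3, edgeR quasi-likelihood test, adjusted p = 2.47e-10). YAP1, the paralog of TAZ, had 149 ± 8.78 CPM with control-siRNA and 150 ± 6.31 CPM with TAZ-siRNA (SD, n = 3). The estimated counts summed to 48307548 to 71749634 per library, and 3 counts corresponded to 0.0411 to 0.0618 CPM. The mesenchymal genes VIM, CD44 and AXL were high in every library, at 358 CPM or more. The labels call the cells epithelial. Of the epithelial or luminal markers listed, ESR1, PGR and CDH1 reached at most 0.578 CPM and EPCAM 1.59 CPM, while KRT18 had at least 472 CPM. The endothelial markers PECAM1 and CDH5 had 4.14 to 6.28 and 1.31 to 2.15 CPM. The fibroblast markers COL1A1 and PDGFRB had 6.81 to 10.3 and 12.7 to 19.2 CPM, and both were higher in every TAZ-siRNA library. Of the 2 blood cell markers listed, PTPRC had 0 counts in all 6 libraries, and CD68, which many other cells also express, had 72.2, 75.1 and 79.7 CPM with control-siRNA and 51.8, 56.4 and 61.2 CPM with TAZ-siRNA.

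Of the 249 genes, 200 passed edgeR's filter on low counts and were tested beside 16766 other genes. Of the 49 that did not pass, 24 had no count in any library and 25 had counts of at most 25 in a library. The tested genes were weakly expressed. Their mean over the 6 libraries ran from 0.239 to 135 CPM with a median of 9.06 CPM, against a median of 28.9 CPM for the other 13314 protein-coding genes tested. On the scale per transcript length, the medians were 1.99 and 7.44 FPKM. The median standard error of a log2 fold change was 0.094 for the zinc finger genes and 0.072 for the other protein-coding genes.

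The chromosome 19 zinc finger genes changed little when TAZ was knocked down. Summed over all 249 genes, they held 2730, 2710 and 2670 CPM with control-siRNA and 2750, 2720 and 2620 CPM with TAZ-siRNA. The 2 groups overlapped, and their means differed by -0.247%. The median log2 fold change of the 200 tested genes was 0.020, with quartiles at -0.105 and 0.152, beside -0.005 for all genes tested. At an adjusted p under 0.05, 15 of the 200 genes (7.5%) differed between the groups, against 22.1% of all genes tested. Of these, 7 were higher with TAZ-siRNA, against 11.9% of all genes tested that were higher, and 8 were lower, against 10.2%. The CPM values of the 2 groups did not overlap for 52 of the 200 genes (26.0%), against 39.6% of all genes tested. The count depended on the libraries. It was 6, 4 and 7 without control-siRNA replicates 1, 2 and 3, 10 and 7 without TAZ-siRNA replicates 1 and 2, and 32 without TAZ-siRNA replicate 3, while 11.2% to 33.7% of all genes passed in these fits. With a correction for transcript length, 8 of the zinc finger genes rose and 18 fell, while 26% of all genes passed. The median log2 fold change was then -0.016 for the zinc finger genes and -0.014 for all genes tested. An unadjusted p under 0.05 was reached by 21.5% of the zinc finger genes and 35.8% of all genes tested.

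The changes that passed were small. The largest rise was 1.29-fold and the largest fall 1.39-fold, whereas 750 of the 3749 genes called in the whole table changed by at least 1.5-fold. For 167 of the 200 genes, the 95% interval of the change lay within 1.5-fold in both directions. A fitted change past 1.5-fold was seen in 4 genes, ZNF880, ZNF878, ZNF773 and ZNF497, named after their values were seen, and none of them passed the test with edgeR or DESeq2, though 1 had an unadjusted edgeR p under 0.05. All 4 were at or near the bottom of the range of levels, with a mean of at most 1.02 CPM. The widest of these intervals, that of ZNF880, reached from -2.02 to 0.64 on the log2 scale.

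**Figure D1:**
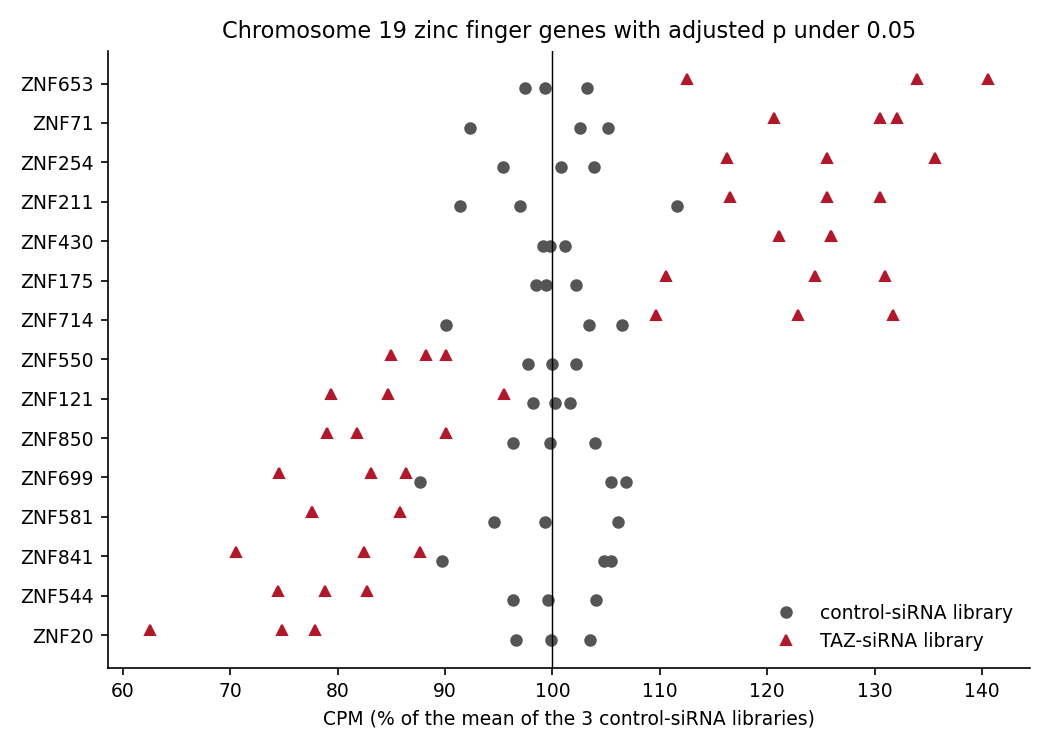
CPM of the 15 genes with an adjusted p under 0.05 in each library, as a percentage of the mean of the 3 control-siRNA libraries (circles, control-siRNA; triangles, TAZ-siRNA). In each gene the circles and triangles do not overlap, and ZNF653 at the top and ZNF20 at the bottom show the largest rise and fall.

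Among the 7 genes that rose, 3 stood in the fifth cluster, the one whose promoters are shown above. That cluster had 23 tested genes, and 11.9% of all genes tested rose. ZNF430 (chr19:21020657-21060050) is a KRAB zinc finger gene with 11 finger matches. It had 14.5, 14.7 and 14.4 CPM with control-siRNA and 17.6, 18.3 and 18.3 CPM with TAZ-siRNA. The control-siRNA libraries lay close together, well under all TAZ-siRNA libraries, and the log2 fold change was 0.31 ± 0.06 (SE, edgeR adjusted p = 0.00648). It was the one rising gene that passed whichever of the 6 libraries was left out. Of the 15 genes, 3 did so, and the others passed in 1 to 4 of these 6 fits. ZNF714 (chr19:21082147-21125094), its neighbour, had 16.9, 16.4 and 14.3 CPM with control-siRNA and 20.9, 19.5 and 17.4 CPM with TAZ-siRNA. The lowest TAZ-siRNA value was just above the highest control-siRNA value, and the log2 fold change was 0.28 ± 0.09 (edgeR adjusted p = 0.0439). ZNF254 (chr19:24033405-24129968) lies at the far end of the cluster. Its CPM values were 13.0, 13.4 and 12.3 with control-siRNA and 17.5, 16.2 and 15 with TAZ-siRNA. The groups were apart, and the log2 fold change was 0.33 ± 0.08 (edgeR adjusted p = 0.0131). TAZ-siRNA replicate 3 was the lowest of its group for ZNF714 and ZNF254, but not for ZNF430.

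The other rising genes were spread over the chromosome. ZNF653 (chr19:11483429-11505839), which has 5 finger matches and no KRAB match, had 7.56, 7.42 and 7.86 CPM with control-siRNA and 10.2, 10.7 and 8.57 CPM with TAZ-siRNA. TAZ-siRNA replicate 3 lay nearest to the control-siRNA libraries. The log2 fold change was 0.37 ± 0.10 (edgeR adjusted p = 0.0228), and 0.46 without that library. ZNF71 (chr19:56595296-56624486) had 7.27, 6.54 and 7.45 CPM with control-siRNA and 8.55, 9.36 and 9.25 CPM with TAZ-siRNA, a log2 fold change of 0.35 ± 0.09 (edgeR adjusted p = 0.0186). ZNF211 (chr19:57633167-57644046) had 13.1, 13.9 and 16 CPM against 18.0, 18.7 and 16.7 CPM. Its groups were separated by less than the spread within the control-siRNA group, with a log2 fold change of 0.31 ± 0.09 (edgeR adjusted p = 0.0252). ZNF175 (chr19:51571283-51592510), known as OTK18 and described as a repressor of the HIV-1 promoter in macrophages, had 10.7, 10.6 and 11.0 CPM with control-siRNA and 11.9, 14.1 and 13.4 CPM with TAZ-siRNA. All TAZ-siRNA libraries were higher, and the log2 fold change was 0.29 ± 0.08 (edgeR adjusted p = 0.0323).

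Of the 8 genes that fell, ZNF544 and ZNF581 passed whichever of the 6 libraries was left out. ZNF544 (chr19:58228594-58277497), a KRAB zinc finger gene with 12 finger matches, had 45.7, 42.3 and 43.7 CPM with control-siRNA and 34.6, 36.3 and 32.7 CPM with TAZ-siRNA. The distance between the groups was larger than the range within either, and the log2 fold change was -0.35 ± 0.06 (edgeR adjusted p = 0.0028). ZNF581 (chr19:55635028-55645623) differs from most of the family. It has 4 finger matches, no KRAB match, a length of 1197 bases and, in its GENCODE transcript, a GC content of 61.8%. At a mean of 33.1 FPKM it was the second most abundant of the tested genes per length after ZNF146 at 36.3 FPKM. Its CPM values were 46.1, 48.4 and 51.7 with control-siRNA and 37.8, 37.8 and 41.8 with TAZ-siRNA. The groups were apart, and the log2 fold change was -0.32 ± 0.06 (edgeR adjusted p = 0.00649).

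ZNF20 (chr19:12131350-12140350) showed the largest fall among the genes that passed. It had 4.48, 4.80 and 4.63 CPM with control-siRNA and 3.61, 3.47 and 2.90 CPM with TAZ-siRNA, a log2 fold change of -0.48 ± 0.12 (edgeR adjusted p = 0.0175). TAZ-siRNA replicate 3 was the lowest, and the change was -0.39 without it. Of the 100-base windows of ZNF20, 72.8% also occur in ZNF625-ZNF20, a read-through gene counted apart, whose counts were 15, 7 and 23 with control-siRNA and 72, 10 and 75 with TAZ-siRNA. The 2 genes summed to 4.71, 4.92 and 5.1 CPM with control-siRNA and 4.59, 3.67 and 4.24 CPM with TAZ-siRNA. The sums did not overlap, but the log2 ratio of their means was -0.24, with no test, so the size of the fall depends on how reads were divided between the 2 genes. ZNF841 (chr19:52050028-52095780), with 20 finger matches, had 30.2, 30 and 25.7 CPM against 25.1, 20.2 and 23.6 CPM. ZNF699 (chr19:9291140-9309838) had 16, 16.2 and 13.3 CPM against 13.1, 12.6 and 11.3 CPM. In both genes the lowest control-siRNA value, that of replicate 3, nearly met the highest TAZ-siRNA value, and the log2 fold changes were -0.32 ± 0.09 (edgeR adjusted p = 0.0291) and -0.30 ± 0.09 (edgeR adjusted p = 0.0428). Without TAZ-siRNA replicate 3, ZNF699 no longer passed (edgeR adjusted p = 0.0542).

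The remaining falls were the smallest of those that passed. ZNF850 (chr19:36743478-36772814), a long array of 30 finger matches, had 15, 14.4 and 13.9 CPM with control-siRNA and 13.0, 11.4 and 11.8 CPM with TAZ-siRNA (log2 fold change -0.26 ± 0.08, edgeR adjusted p = 0.0378). ZNF550 (chr19:57541836-57561512) had 30.6, 31.3 and 32.0 CPM against 28.2, 27.6 and 26.6 CPM (log2 fold change -0.19 ± 0.06, edgeR adjusted p = 0.0312). ZNF121 (chr19:9560329-9584544), which has 9 finger matches and no KRAB match, had 74.4, 73.4 and 71.9 CPM against 69.9, 62.0 and 58.1 CPM. Its control-siRNA libraries agreed closely while its TAZ-siRNA libraries were spread, and the log2 fold change was -0.21 ± 0.07 (edgeR adjusted p = 0.0447). In the plot of the 15 genes by library, these 3 lie nearest to the control level.

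Genes with and without a KRAB match were found among both the rises and the falls. Of the 165 tested genes with a KRAB match, 5 rose and 6 fell, and of the 33 without one, 2 rose and 2 fell, where 11.9% of all genes tested rose and 10.2% fell. Reads of near-identical copies could be assigned to the wrong gene, and for 11 of 199 tested genes more than 10% of the 100-base windows of their transcripts also occurred in another gene of the table. For 3 of the 11, ZNF20, ZNF625 and ZNF8, the other gene was a read-through gene that spans them. ZNF20 was the one gene among the 11 that passed. Reads from overlapping genes on the opposite strand cannot be told apart here, because the use of strand in the counting is not given.

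The share of genes that passed rose with abundance. None of the 34 zinc finger genes with a mean under 2 CPM passed with edgeR or DESeq2 (2 had an unadjusted edgeR p under 0.05), and 1 of the 55 between 2 and 8 CPM (1.82%) did. It was 6 of 53 (11.3%) between 8 and 16 CPM, and 8 of 58 (13.8%) at 16 CPM or more. At the same levels, 10.3%, 23.9%, 28.5% and 29.3% of the other protein-coding genes passed. Above 16 CPM the median standard error was 0.067 for the zinc finger genes and 0.061 for the others, and the median size of the log2 fold change was 0.103 and 0.124. Whether abundance accounts for the lower share was not tested.

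Of the 5 genes with the highest CPM, ZNF121 passed and the others did not. ZNF146 (OZF), a protein made almost entirely of fingers, had 141, 141 and 137 CPM with control-siRNA and 135, 123 and 132 CPM with TAZ-siRNA. The groups did not overlap, but the log2 fold change of -0.10 ± 0.05 did not pass (edgeR adjusted p = 0.162). ZNF317 had 76.7, 71.9 and 74.2 CPM against 79.7, 77.0 and 80.8 CPM, a log2 fold change of 0.09 ± 0.05 (edgeR adjusted p = 0.201). ZNF562 and ZNF160 overlapped between the groups, with log2 fold changes of 0.03 ± 0.05 and 0.01 ± 0.05.

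The genes with the best described roles were looked at as a group. A list of 16 zinc finger genes with a described function was drawn up for this comparison. Of these, ZNF268 is not on chromosome 19 in the deposited table, ZNF208 had no count in any library and ZNF331 had at most 4 counts. None of the other 13 passed the test with edgeR or DESeq2, and 2 had an unadjusted edgeR p under 0.05, against 22.1% and 35.8% of all genes tested. ZNF91 and ZNF93, which silence SVA and LINE-1 retrotransposons, had 4.57 ± 0.448 and 6.35 ± 0.279 CPM with control-siRNA and 4.64 ± 0.187 and 6.74 ± 0.890 CPM with TAZ-siRNA (SD, n = 3). The groups overlapped for both, and their log2 fold changes were 0.02 ± 0.11 and 0.08 ± 0.11. ZNF274, which recruits SETDB1 to the 3′ ends of zinc finger genes, had 40.5, 40.0 and 42.2 CPM against 41.4, 45.4 and 45.6 CPM, and its groups overlapped (log2 fold change 0.11 ± 0.06, edgeR adjusted p = 0.204).

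ZNF304 and ZNF420 were the listed genes nearest to the threshold. ZNF304, a KRAB repressor, had 13.4, 12.4 and 12.9 CPM with control-siRNA and 14.9, 14.3 and 14.1 CPM with TAZ-siRNA. The groups were apart, and the log2 fold change was 0.17 ± 0.07 (edgeR adjusted p = 0.112). ZNF420 (APAK), described as a regulator of p53, had 19.5, 18.4 and 18.1 CPM against 16.4, 16.2 and 17.3 CPM, and was lower in every TAZ-siRNA library (log2 fold change -0.17 ± 0.07, edgeR adjusted p = 0.0962). ZNF350 (ZBRK1), a partner of BRCA1, ZNF765, ZNF675 and ZNF568 overlapped between the groups, with log2 fold changes of -0.06 to 0.04. ZNF382 was weakly expressed, at 0.419 ± 0.193 and 0.579 ± 0.163 CPM, and its log2 fold change of 0.52 ± 0.36 was not distinguishable from 0 at this depth.

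The shift of the group as a whole was examined library by library. Each gene's log2 CPM was set against its mean over the 6 libraries. The median deviation of the 200 genes was 0.009, -0.001 and -0.024 with control-siRNA, whereas with TAZ-siRNA it was 0.038, 0.048 and -0.033. The first and second TAZ-siRNA libraries were thus above all control-siRNA libraries and the third was below them all. The means of the groups differed by 0.023, less than the pooled SD of 0.033. Without TAZ-siRNA replicate 3, the median log2 fold change of the zinc finger genes was 0.070, with 127 of 202 genes above 0, against 0.012 for other protein-coding genes. In that fit 18 of the 202 genes rose and 14 fell, which is 15.8% against 33.7% of all genes tested, and 14 of the 15 genes described above were among them.

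**Figure D2:**
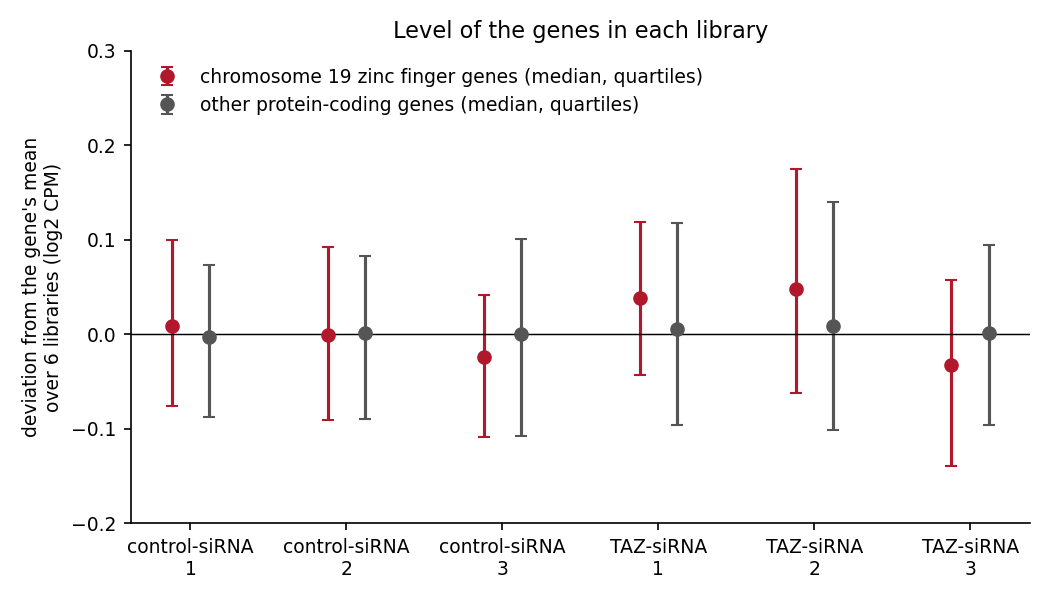
Deviation of each gene's log2 CPM from its mean over the 6 libraries, shown for each library as the median (point) and quartiles (bars) of the 200 zinc finger genes and of the other protein-coding genes. The zinc finger medians are highest in TAZ-siRNA replicates 1 and 2 (0.038 and 0.048) and lowest in replicate 3 (-0.033), while those of the other genes stay between -0.003 and 0.009.

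Zinc finger genes of other chromosomes gave a similar picture of the libraries. Their median deviation was 0.040, 0.024 and -0.042 in TAZ-siRNA replicates 1, 2 and 3. Over all 6 libraries their median log2 fold change was 0.006, and 39 of 226 (17.3%) passed the test. For the other 754 protein-coding genes of chromosome 19, the median was -0.020 and 151 passed. Whether the chromosome 19 zinc finger genes differ from these sets was not tested, as the genes of a set are not independent replicates.

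The change was next set against transcript length. In the whole table, longer transcripts tended to be higher with TAZ-siRNA. Over the other 13314 protein-coding genes, the log2 fold change rose by 0.063 per doubling of length (Pearson r = 0.177, Spearman rho = 0.236, across genes, which are not independent replicates). The slope was 0.069 for other protein-coding genes of chromosome 19 and 0.049 for zinc finger genes of other chromosomes. For the chromosome 19 zinc finger genes it was 0.015 (r = 0.05, rho = 0.041 over 200 genes), lower than in the other sets. With the longest transcript taken as the length, it was 0.039 against 0.062 for the other protein-coding genes and 0.035 for zinc finger genes of other chromosomes, which were then the lower, and with the median over transcripts 0.033 against 0.065. After a spline on length had been removed from each library, the slope of the zinc finger genes was -0.051 and that of the others 0.0.

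The genes were divided into 4 classes at the quartiles of length of all protein-coding genes. The medians of the zinc finger genes were above those of the other genes in the shorter classes and below them in the longest. Under 2052 bases, 23 zinc finger genes had a median log2 fold change of -0.052, against -0.076 for the other protein-coding genes. From 2052 to 3322 bases the medians were 0.020 over 58 genes and -0.007, and from 3322 to 5191 bases they were 0.045 over 75 genes and 0.037. Above 5191 bases, 44 zinc finger genes had a median of 0.030, whereas the others reached 0.076. The median deviation of this class with control-siRNA was 0.025, 0.016 and -0.052, against -0.008, -0.025 and -0.077 for the others. With TAZ-siRNA it was 0.084, 0.042 and -0.121, against 0.09, 0.08 and -0.047. For the zinc finger genes, the difference between the longest and shortest class had a SD of 0.126 between libraries. Whether the 2 sets differ in the longest class was not tested. The share of zinc finger genes that passed was 4.35%, 5.17%, 8.0% and 11.4% from the shortest to the longest class, against 21.4%, 24.6%, 27.5% and 30.2% of the others. Of the 5 zinc finger genes that passed in the longest class, ZNF175 and ZNF714 rose and ZNF850, ZNF699 and ZNF121 fell. Of the others in that class, 733 rose and 276 fell.

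**Figure D3:**
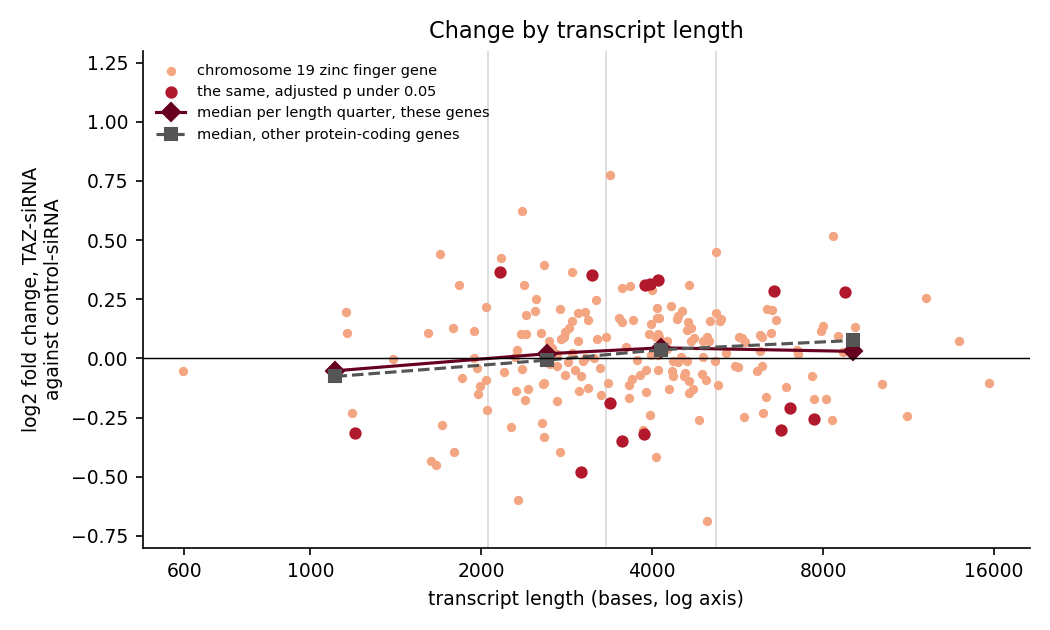
Log2 fold change of each of the 200 zinc finger genes against the length of its transcript (log axis), with genes of adjusted p under 0.05 in dark red. Diamonds and squares are the medians of the zinc finger genes and of the other protein-coding genes in each length class (grey lines mark the quartiles). In the longest class these are 0.030 and 0.076.

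At the ends of the length range, ZNF585A and ZNF283 were both without a change that passed. ZNF585A, a gene with 21 finger matches whose transcript of highest FPKM is a short one of 597 bases, had 28.9, 28.3 and 28.1 CPM with control-siRNA and 28.6, 27.4 and 26.3 CPM with TAZ-siRNA (log2 fold change -0.05 ± 0.06). The 597-base transcript had 1.90 to 3.03 CPM per library, so most counts of ZNF585A came from its other transcripts. The length used for this gene, also in the length correction, is that of the short transcript. Of the windows of ZNF585A, 7.6% also occur in another gene, mostly ZNF585B. ZNF283, at 15710 bases, had 0.553 ± 0.129 and 0.514 ± 0.213 CPM (SD, n = 3) and a log2 fold change of -0.10 ± 0.35.

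The slope differed more between libraries of 1 group than between the groups. For the zinc finger genes, the deviation changed per doubling of length by -0.01, 0.007 and -0.018 with control-siRNA and by 0.085, 0.007 and -0.072 with TAZ-siRNA. The TAZ-siRNA libraries thus held both the steepest rise and the steepest fall with length. The groups differed by 0.014, against a pooled SD of 0.056. For the other protein-coding genes the slopes were -0.009, -0.020 and -0.063, and 0.069, 0.058 and -0.035. Their difference of 0.061 was not distinguishable from the spread between libraries (exact permutation test, two-sided, p = 0.3, n = 3 against 3, where the smallest possible p is 0.1). Without TAZ-siRNA replicate 3, the slope of the log2 fold change was 0.052 for the zinc finger genes and 0.096 for the others. Without TAZ-siRNA replicate 1, that of the zinc finger genes was -0.033.

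**Figure D4:**
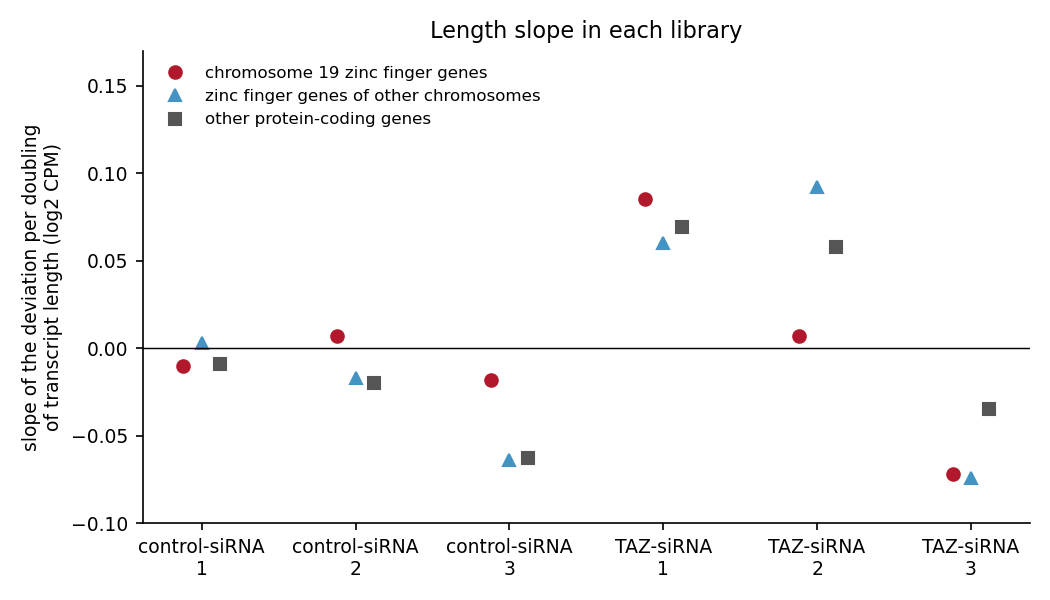
Slope of the deviation in log2 CPM per doubling of transcript length in each library, for the chromosome 19 zinc finger genes, zinc finger genes of other chromosomes and other protein-coding genes. TAZ-siRNA replicate 1 lies above 0 and replicate 3 below 0 in all 3 sets, and in replicate 2 the chromosome 19 genes (0.007) lie under the other protein-coding genes (0.058).

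Length went together with other properties of the genes. Over 198 zinc finger genes with all values, the log2 of length correlated with GC content (r = -0.4), with the number of fingers (r = 0.26) and with the log2 of mean CPM (r = 0.17). The log2 fold change correlated weakly with each of them, with r between -0.06 and 0.06. The 33 genes without a KRAB match were shorter (median 2922 against 4061 bases) and richer in GC (62.3% against 42.0%) than the 165 with one. Their median log2 fold change was -0.042 against 0.033. Within the genes with a KRAB match, the medians were -0.067, 0.028, 0.073 and 0.030 from the shortest to the longest class, over 10, 50, 65 and 40 genes. By number of fingers the medians were -0.013 for up to 9, 0.039 for 10 to 15 and 0.020 for 16 or more.

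Transcripts of the same gene were also compared. In 157 of the tested genes at least 2 transcripts had a mean count of 10 or more. The log2 ratio of the longest to the shortest was taken in each library. The median length was 2995 bases for the shortest and 4493 bases for the longest. No minimum difference in length was asked of a pair, and some pairs, such as that of ZNF20 below, differ by few bases. The ratio in such a pair says little about length. The change of the ratio, TAZ-siRNA minus control-siRNA, had a median of -0.079 with quartiles at -1.22 and 1.1, and was positive in 71 genes and negative in 86. The SD of the ratio within a group had a median of 2.02, so single transcripts were measured with little precision. The ratio was higher in every TAZ-siRNA library than in any control-siRNA library for 7 genes and lower for 6, in all 13 of 157, against 11.2% of 10449 genes with such a pair. Among the genes that passed at the gene level, ZNF20 was the one of these 13. Its transcript of 2995 bases had 2.31, 2.51 and 2.49 CPM with control-siRNA and 3.25, 2.19 and 1.83 CPM with TAZ-siRNA, and that of 3004 bases had 2.17, 2.30 and 2.14 CPM against 0.356, 1.28 and 1.07 CPM. The longer of these was lower in every TAZ-siRNA library, and the shorter in replicates 2 and 3, with reads of the read-through gene again counted apart.

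Position along the chromosome was examined by cluster. Of the 6 clusters with at least 20 tested genes, the fifth (chr19:19668070-24129968), ninth and twelfth had the highest medians. The fifth had a median of 0.089 over 23 genes, and 16 were above 0. In it 3 rose, against 11.9% of all genes tested, and none fell, against 10.2%. Its median deviation was 0.001, -0.076 and -0.052 with control-siRNA and 0.116, 0.14 and -0.001 with TAZ-siRNA, so that the groups overlapped. The twelfth had a median of 0.103 over 22 genes, with 15 above 0. None of the 22 passed with edgeR or DESeq2, whereas 22.1% of all genes tested passed with edgeR. An unadjusted edgeR p under 0.05 was reached by 4 of them, against 35.8% of all genes tested. These were ZNF112, ZNF235 and ZNF226 above 0 and ZNF296 below. The median deviation of the twelfth cluster was -0.066, -0.037 and -0.021 with control-siRNA and 0.048, 0.052 and 0.017 with TAZ-siRNA, so that the groups did not overlap. The ninth had a median of 0.074 over 24 genes, but its deviation in TAZ-siRNA replicate 3 (-0.057) was under those of all control-siRNA libraries. The third, fifteenth and sixteenth clusters, with 23, 30 and 48 tested genes, had medians of -0.014, 0.004 and -0.004. The twelfth cluster and the genes named in it were singled out after their values were seen.

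**Figure D5:**
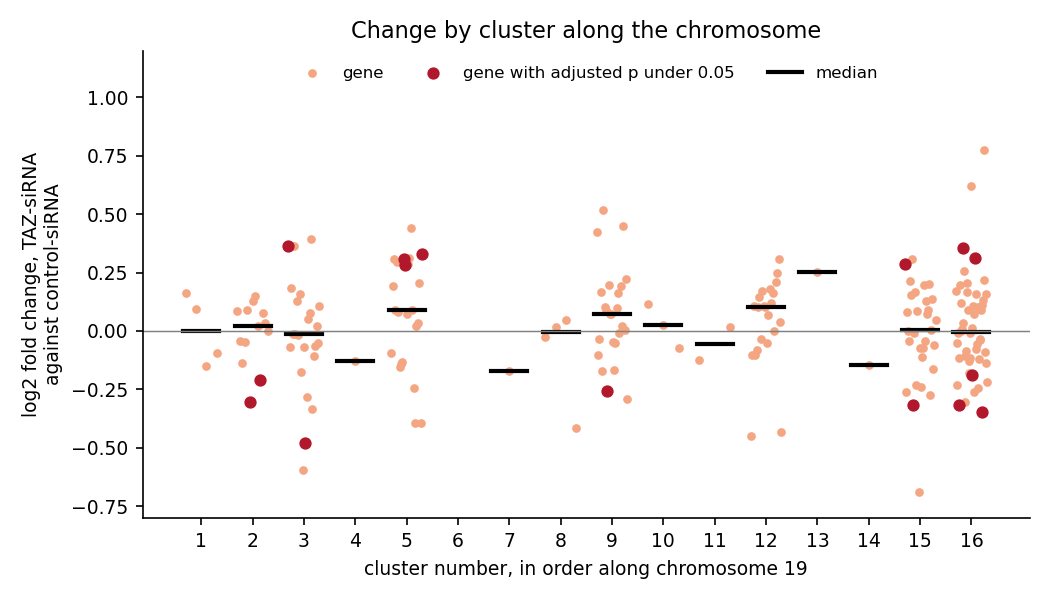
Log2 fold change of each tested zinc finger gene by cluster number along chromosome 19, in order of start within a cluster, with the median as a bar and genes of adjusted p under 0.05 in dark red. The fifth and twelfth clusters have medians of 0.089 and 0.103, and the sixth holds no tested gene.

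Promoters were examined because TAZ acts through TEAD factors, whose core site reads CATTCC, or GGAATG on the opposite strand. RefSeq windows were found for 216 of the 249 genes. The core was present on either strand in 13.8% of their 268 windows, against 14% of all 35116 windows and 12.2% of those of protein-coding genes. In the 250 bases before the start, it was present in ZNF175, which rose, and in ZNF20 and ZNF581, which fell, among the 14 genes that passed and had a window. These windows are shown with the core in capitals and the strand of the gene. They are the windows with a core among the genes that passed. The ZNF581 window lies inside the deposited span of that gene (chr19:55635028-55645623). Its core also lies within the deposited span of the neighbouring gene ZNF580 (chr19:55641002-55643470).
ZNF175 (GRCh38.p14, chr19:51571033-51571282, plus strand): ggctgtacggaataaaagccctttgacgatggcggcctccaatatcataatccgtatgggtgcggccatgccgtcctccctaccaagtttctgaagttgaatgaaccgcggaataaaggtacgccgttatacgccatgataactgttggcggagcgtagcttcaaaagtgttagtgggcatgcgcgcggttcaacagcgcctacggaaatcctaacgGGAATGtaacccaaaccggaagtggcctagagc
ZNF20 (GRCh38.p14, chr19:12140351-12140600, minus strand): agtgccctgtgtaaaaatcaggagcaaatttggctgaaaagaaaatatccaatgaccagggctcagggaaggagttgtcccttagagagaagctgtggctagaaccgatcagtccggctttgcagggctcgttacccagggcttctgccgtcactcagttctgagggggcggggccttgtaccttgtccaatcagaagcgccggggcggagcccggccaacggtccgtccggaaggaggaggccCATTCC
ZNF581 (GRCh38.p14, chr19:55643399-55643648, plus strand): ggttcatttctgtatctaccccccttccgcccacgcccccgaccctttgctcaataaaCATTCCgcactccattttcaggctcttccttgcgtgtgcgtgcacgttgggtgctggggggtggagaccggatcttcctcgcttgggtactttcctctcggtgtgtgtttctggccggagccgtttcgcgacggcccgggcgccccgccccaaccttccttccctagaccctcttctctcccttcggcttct
A match is a description of letters in a window, and binding was not measured. The motif CCAAT, on either strand, was present in 50% of the windows of the zinc finger genes and in 34.6% of all windows. The 3 promoters of the fifth cluster each hold it.

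Partner proteins of KRAB zinc fingers were compared from a list of 31 genes. Of these, 30 were tested, 2 rose and 2 fell, against 22.1% of all genes tested that changed, and the median log2 fold change was 0.031. The 4 calls became 2 without any 1 of the control-siRNA libraries or without TAZ-siRNA replicate 1. In these fits 11.2% to 13.1% of all genes passed. The calls became 13 without TAZ-siRNA replicate 3, where 33.7% of all genes passed. HDAC1, a histone deacetylase, had 127, 131 and 128 CPM with control-siRNA and 151, 151 and 154 CPM with TAZ-siRNA. The groups were far apart, and the log2 fold change was 0.24 ± 0.04 (edgeR adjusted p = 0.00331). TASOR, a subunit of the HUSH silencing complex, had 122, 126 and 110 CPM against 158, 150 and 139 CPM and was higher in every TAZ-siRNA library (log2 fold change 0.32 ± 0.07, edgeR adjusted p = 0.0065).

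The falls were in CBX3 and TRIM24. CBX3, which encodes HP1 gamma, had 207, 207 and 209 CPM with control-siRNA and 180, 178 and 186 CPM with TAZ-siRNA (log2 fold change -0.20 ± 0.05, edgeR adjusted p = 0.0124). TRIM24, a relative of TRIM28, had 47.3, 45.2 and 45.0 CPM against 41.4, 40.9 and 40.2 CPM (log2 fold change -0.17 ± 0.05, edgeR adjusted p = 0.0411). Both were lower in every TAZ-siRNA library. The corepressor TRIM28 itself had 309 ± 5.54 and 319 ± 5.34 CPM (SD, n = 3) and a log2 fold change of 0.04 ± 0.05 (edgeR adjusted p = 0.577). SETDB1 had 34.4 ± 0.976 and 34.0 ± 3.80 CPM and a log2 fold change of -0.02 ± 0.08. ZFP57, the one listed gene not tested, was below the filter on low counts.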

How the data were processed

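Stranded mRNA libraries were made from MDA-MB-231 cells, 3 per group (control-siRNA or TAZ-siRNA), and read as paired ends of 100 bases. After trimming, the authors used HISAT2 with GRCh38 for mapping and StringTie with RefSeq transcripts for quantification. The submitters' processing notes also name Bowtie 0.12.2 and another build, with no role given. The deposited estimated counts per gene and transcript are whole numbers that the authors derived from read coverage. Deposited FPKM values take length and library size into account. Deposited TPM values, scaled to a common total, were not used for any result. Libraries were grouped by their descriptions, whose replicate numbers 1 to 3 differ from those in the titles. Every column of values had a sample.

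Counts were compared with edgeR 4.0.16 (R 4.3.3), with TMM factors, the filterByExpr filter (minimum count 10), its robust quasi-likelihood test and Benjamini-Hochberg adjustment across 16966 genes. DESeq2 1.42.0, limma 3.58.1 on log2 FPKM with 1 or 0.1 added, upper-quartile factors, other filters, a replicate block, splines with 5 degrees of freedom on length or GC content, and leaving out each library were alternatives. Intervals are at 95%, and the floor of 3 counts covers counting error only. Replicates of a group differed by more than sampling noise, the chi-square per degree of freedom being 6.79 to 41. The methods were tested on simulated data. No RefSeq protein table was used, and proteins were translated from GENCODE release 44. GC content is that of the canonical transcript of each gene in that release, whereas length is that of a deposited transcript. The finger pattern was C, 2 to 4 residues, C, 12 residues, H, 3 to 5 residues, H. All 249 genes overlapped their RefSeq GRCh38.p14 positions.

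The genes named are the largest rises and falls (at most 8 each) among those that passed at 0.05, had at least 1 CPM on average and showed no overlap of the groups, the 5 with the highest CPM, a list of 16 with described roles, the shortest and longest, WWTR1, and the listed partners of KRAB proteins that passed, with TRIM28 and SETDB1. A few others were named after their values were seen: those past 1.5-fold, those of the twelfth cluster, those that share promoter letters or windows with another gene, and those that changed direction under an alternative. Genes and lists were chosen with earlier results of these data known.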

Additional observations from a re-analysis of the deposited data

How the results depend on the processing

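The number of chromosome 19 zinc finger genes that passed the test, 15 of 200, was 15 or 16 with DESeq2, upper-quartile factors and other filters on low counts. In these runs 12.6% of all genes passed without a filter and 22% to 24.6% in the others, against 22.1% in the fit reported above. The number was 26 with a correction for length and 26 with one for GC content and length, where 26% and 27% of all genes passed. It was 6 and 4 with limma on log2(FPKM + 1) and log2(FPKM + 0.1), where 16% and 16.2% of all genes passed. When a library was left out it was 4 to 32, while 11.2% to 33.7% of all genes passed. At an adjusted p under 0.01, where no share of all genes is given, 3 zinc finger genes passed. Their median log2 fold change of 0.02 was -0.016 with the length correction and 0.01 to 0.07 without a library, the highest without TAZ-siRNA replicate 3. Their length slope of 0.015 was -0.051 with the length correction and -0.046 with the GC and length correction, and -0.033 to 0.052 without a library. Both corrections remove a trend that was fitted mostly on other genes. The difference in median between the longest and the shortest length class, 0.081, was -0.049 with the length correction and -0.013 to 0.146 without a library. Of the listed partners of KRAB proteins, 4 passed, against 7 with DESeq2, where 23.8% of all genes passed. The partners that passed were 8 and 7 with the 2 corrections and 2 to 13 without a library, beside the shares of all genes given above. The causes of these differences were not tested. The log2 fold change of WWTR1 kept its direction and passed in every alternative run.

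The correlations of same-numbered deviations were -0.02, 0.01 and 0.07, and not every library correlated best with its own number. They showed no pairing by replicate number across the genes, but do not decide it for every gene. Whether same-numbered preparations were handled together is not given in the sources used here. With a replicate block, 25 zinc finger genes and 10 partners passed, while the share of all genes tested rose from 22.1% to 30.2%. With the block and the GC and length correction together these were 34 and 11, with a slope of -0.045, and 30.8% of all genes passed.

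For the 62 single genes named or listed as partners, 829 of the recomputed changes kept direction and side of the threshold, 83 no longer passed, 34 newly passed and 46 changed direction. None of the genes that changed direction passed in the fit reported above. With the length correction, ZNF562 was at -0.058, ZNF160 at -0.055, ZNF91 at -0.057, ZNF585A at 0.078, HDAC2 at -0.018, CHD4 at -0.076, PPHLN1 at 0.023 and MORC2 at -0.081. With the GC and length correction, ZNF562 was at -0.054, ZNF160 at -0.049, ZNF91 at -0.023, ZNF585A at 0.109, TRIM28 at -0.01, CHD4 at -0.11, PPHLN1 at 0.052, MORC2 at -0.114 and UHRF1 at -0.019. With the replicate block added to it, these were -0.053, -0.049, -0.024, 0.107, -0.01, -0.11, 0.052, -0.114 and -0.024, HDAC2 was at -0.001, and CHD4 and MORC2 passed (edgeR adjusted p = 0.0404 and 0.0485). ZNF91 was at -0.03 and -0.064 with limma on log2(FPKM + 1) and log2(FPKM + 0.1), and MORC2 at -0.001 with upper-quartile factors. Without a library, the changes ran from -0.021 to 0.034 for ZNF160, -0.057 to 0.079 for ZNF91, -0.125 to 0.022 for ZNF765, -0.076 to 0.128 for ZNF675, -0.134 to 0.045 for ZNF568, -0.319 to 0.203 for ZNF283, -0.106 to 0.047 for SETDB1, -0.001 to 0.056 for CHD4, -0.015 to 0.031 for MORC2 and -0.046 to 0.175 for UHRF1. Depth limits the genes under 2 CPM most, where the median standard error of a zinc finger gene was 0.255.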
